A study of Mus musculus with 12 samples.

Results

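SCC7 cells, a mouse line labelled squamous carcinoma, were compared after culture in medium from macrophages treated with interferon-gamma (M1 CM) and in medium from untreated macrophages (M0 CM). The comparison takes 6 of the 12 libraries of the series, 3 in each medium, picked by the sample titles alone, and covers the 14509 of 55487 genes that passed a filter on low counts. The macrophages were bone-marrow-derived macrophages kept for 24 h in control medium (DMEM) for M0 CM or with interferon-gamma at 20 ng/ml for M1 CM, and their conditioned medium (CM) was then put on SCC7 cells for 24 h. The remaining libraries, used for the shared estimate of spread and for a comparison near the end, had medium from macrophages treated with interleukin-4 at 20 ng/ml (M2 CM) or with 75% SCC7 medium (TAM CM). All SCC7 cells were labelled wild type. A control in which SCC7 cells received interferon-gamma directly is not among these libraries, and the labels do not say whether the cytokine was removed before the macrophage medium was collected, so interferon-gamma carried over and factors made by the macrophages cannot be told apart. Nothing in the labels tells whether the 3 libraries of a medium are separate cultures. The p-values therefore reflect the spread among these libraries, part or all of which may be technical.

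Interferon-gamma binds the receptor pair IFNGR1 and IFNGR2, which activates the kinases JAK1 and JAK2. These phosphorylate a STAT factor, whose dimers bind GAS elements and switch on early genes such as the transcription factor IRF1. IRF1 and the complex of STAT factors with IRF9 act on ISRE elements in the promoters of genes for cell-autonomous defence, antigen presentation and chemokines, while SOCS1 and USP18 act as brakes. Tumour cells that respond to interferon-gamma are known to show more antigen, to attract T cells and to raise inhibitory ligands, and often to grow more slowly.

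Levels are CPM, read counts scaled to TMM-adjusted library size, listed for replicates 1 to 3 in that order, and 1 CPM is about 21 counts in a library. They are not corrected for gene length, so they compare libraries for a gene and not genes with each other. A gene was called higher or lower when edgeR's quasi-likelihood test gave a Benjamini-Hochberg adjusted p under 0.05 over all 14509 genes. A gene counted in only 1 medium passes the filter through that medium, so counts over the members tested describe these libraries and are no test of a list. In bulk RNA, fewer cells of a type and less RNA per cell cannot be told apart.

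The 6 libraries held between 19461632 and 22596630 counts, mitochondrial genes took 1.64% to 1.81% of them, and log2 CPM correlated across genes at r of 0.992 to 0.994 between libraries of a medium. The line's labelled type was checked against 12 squamous carcinoma markers, and their summed level was between 361 and 391 CPM in M0 CM and between 167 and 171 CPM in M1 CM. Nearly all of that sum was Krt8 and Krt18, keratins of simple epithelium, while Krt6a, Epcam and Perp had 0 counts in the 6 libraries, and Vim, the mesenchymal intermediate filament gene, was at 4548, 4748 and 4606 CPM in M0 CM. The markers therefore gave little of a squamous profile in any library, and the cells are named here by their line. Of 16 macrophage markers, Fcgr3, Marco and Tyrobp had 0 counts in the 6 libraries, Adgre1 (F4/80) read at most 0.192 CPM in any of them, and the sum was 6.42 to 7.18 CPM in M0 CM and 35.1 to 42.1 CPM in M1 CM. Mpeg1, which encodes a pore-forming protein, made up most of the sum in M1 CM with a mean of 27.5 CPM. Of the 5 macrophage markers tested 4 were called higher and 0 lower. Mean Cd68 went from 3.89 CPM in M0 CM to 6.99 CPM in M1 CM and Mrc1 from 0.681 to 2.6 CPM, while Lyz2 went from 0.831 to 0.422 CPM. The 8 neutrophil markers summed to at most 2.65 CPM and the 10 T and NK cell markers to at most 0.0512 CPM in any of the 6 libraries.

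In M1 CM 4023 genes were higher (27.7% of those tested) and 3719 were lower (25.6%). These shares over all genes belong beside each list count of this comparison below. At least 2-fold differences were fewer and lay mainly on the higher side, with 851 genes up (5.87%) and 389 down (2.68%), or 523 and 158 with a filter of 5 CPM in 3 libraries, which tests fewer genes. The 6 libraries separated without overlap for 8531 genes (58.8%), so a lack of overlap was common here and marks no gene out. It was also required of the genes named as largest rises or falls. Without TMM factors, on raw library sizes, 3219 genes were called higher and 4626 lower, and the median log2 difference over all genes moved from 0.01 to -0.06. Small differences are for that reason given with their size, and the account below follows the larger ones. A test against a 1.5-fold difference (glmTreat, adjusted p under 0.05) passed 920 genes higher (6.34%) and 452 lower (3.12%). The plot of difference against level shows how far the rises outreached the falls.

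**Figure D1:**
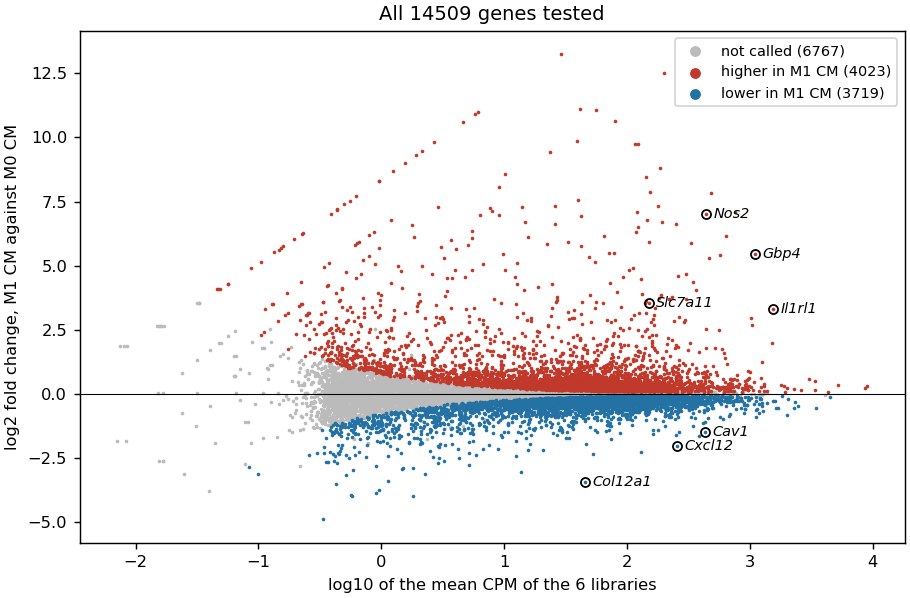
Each point is a gene, with the log10 of its mean CPM over the 6 libraries on the horizontal axis and its log2 fold change in M1 CM against M0 CM on the vertical axis. Red points are the 4023 genes called higher and blue points the 3719 called lower, and the falls reach about as far as Col12a1 at -3.46 among abundant genes while many rises pass that size.

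The receptor genes of the pathway were already present in M0 CM, and 5 of 8 receptor and JAK genes tested rose. Ifngr2, the signalling chain of the receptor, rose 1.29-fold, and the ligand-binding chain Ifngr1 was at 43.7, 45.1 and 42.6 CPM in M0 CM and 41.4, 40.4 and 38.9 CPM in M1 CM (adjusted p = 0.06). Ifngr1 was called lower with DESeq2's size factors, with library sizes alone and with a filter of 5 CPM. Jak2, the kinase bound to IFNGR2, read 30.02, 33.1 and 31.8 CPM in M0 CM and 78.4, 74.4 and 75.7 CPM in M1 CM. Every M1 CM library lay above every M0 CM library, a rise of 2.41-fold. The list had 0 members called lower and a median log2 fold change of 0.24. Ifnar2, a chain of the type I interferon receptor, was among those that rose, at 24.3, 26.6 and 27.4 CPM in M0 CM and 42.4, 46.98 and 45.3 CPM in M1 CM.

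Further down, transcription factors of the pathway had larger rises. Stat2, a part of the type I interferon complex, read 25.2, 27.7 and 24.1 CPM in M0 CM and 346, 345 and 330.1 CPM in M1 CM, a log2 fold change of 3.73 (SE 0.05) with edgeR adjusted p = 4.59e-49. The lowest M1 CM library was far above the highest M0 CM library. Irf9, which gives that complex its DNA contact, read 9.48, 10.6 and 9.93 CPM in M0 CM and 104, 95.6 and 103 CPM in M1 CM. All 3 M1 CM libraries were far above M0 CM for this gene too. Stat3, the factor of interleukin-6 family signalling, rose 2.13-fold, whereas Stat6, the factor of interleukin-4 signalling, fell 1.14-fold. Over the STAT list 3 of 6 members tested were higher and 1 was lower, and the lower count was 2 or 3 under 8 of the alternatives, among them leaving out M0 CM replicate 2, M1 CM replicate 1 or M1 CM replicate 2.

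In build GRCm38 (mm10), used for all gene positions here, Irf1 (chr11:53770014-53778374, + strand), an early target of the pathway, read 69.6, 74.4 and 71.8 CPM in M0 CM and 523, 534 and 509 CPM in M1 CM. Irf7, the factor that amplifies interferon production, read 3.19, 3.03 and 3.13 CPM in M0 CM and 149, 142 and 127 CPM in M1 CM. The M1 CM libraries were well above those of M0 CM for both. Irf5 rose 3.38-fold and Irf2, a competitor of IRF1 for its sites, rose 1.97-fold. Irf3, the constitutive factor downstream of nucleic acid sensing, fell 1.202-fold. Of 6 interferon regulatory factors tested, 5 were higher and 1 lower. Nlrc5, the transactivator of MHC class I genes, rose as well, from 36.6, 33.5 and 35.7 CPM to 302, 302 and 280.2 CPM.

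Feedback inhibitors moved in both directions. Usp18, which blocks the type I receptor, read 1.23, 1.04 and 0.867 CPM in M0 CM and 69.5, 66.7 and 57.6 CPM in M1 CM. Socs1, the inhibitor of JAK2, read 17.5, 20.6 and 18.9 CPM in M0 CM and 77.97, 61.5 and 74.1 CPM in M1 CM, and Socs3, the inhibitor of interleukin-6 family signalling, read 32.1, 34.4 and 34.3 CPM in M0 CM and 75.2, 75.3 and 77.7 CPM in M1 CM. In these 3 genes no M0 CM library reached the lowest M1 CM library. Socs2, a regulator of growth hormone signalling, went the other way at 13.5, 15.2 and 15.6 CPM in M0 CM and 4.499, 4.52 and 4.604 CPM in M1 CM. Cish, a target of STAT5, was called lower at a low level, 0.3401, 0.945 and 1.16 CPM in M0 CM and 0.225, 0.433 and 0.0512 CPM in M1 CM. Ptpn11, a phosphatase acting on many receptors, was at 259, 264 and 256 CPM in M0 CM and 258, 260.3 and 263 CPM in M1 CM (adjusted p = 0.93). In all, 4 of 17 inhibitors tested rose and 6 fell, beside 27.7% and 25.6% of all genes tested. The list thus had no common direction (median log2 fold change -0.03).

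**Figure D2:**
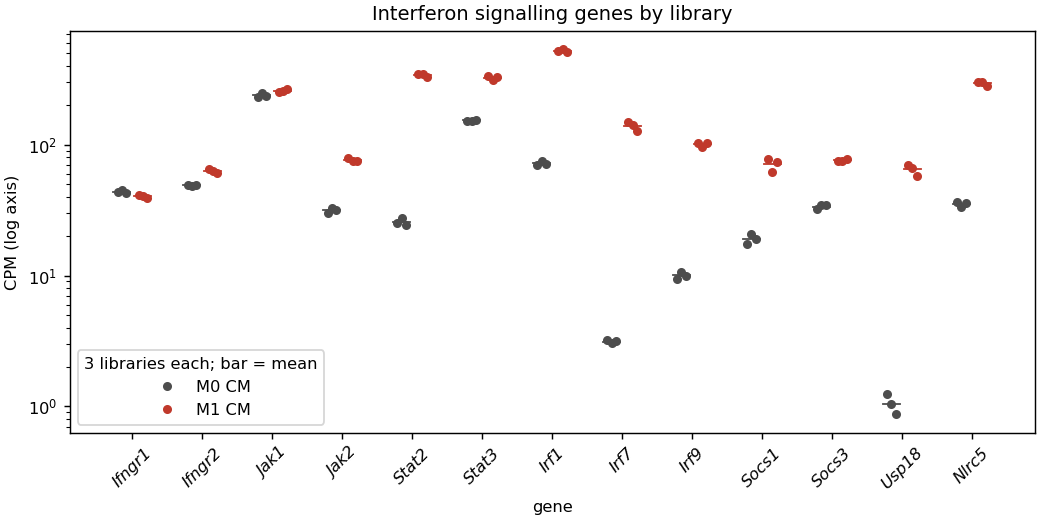
CPM on a log axis for 13 genes of interferon signalling, with grey points for the 3 M0 CM libraries, red points for the 3 M1 CM libraries and a bar at each mean. Receptor and Jak1 points of the 2 media lie close together, while those of Stat2, Irf7 and Usp18 are widely separated.

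The cells' own interferon transcripts stayed at or near 0. Of 12 interferon genes, all were under the filter. Ifng itself had 0 counts in all 6 libraries. Ifnb1, the first type I interferon made after nucleic acid sensing, had 2, 0 and 0 counts in M0 CM and 8, 3 and 2 counts in M1 CM, which is too few for a test here. These are transcripts of SCC7 cells and do not measure the interferon protein in the medium.

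Promoter sequence is shown for 4 members that carry the interferon elements in the window held here, to show what the letters of a GAS and an ISRE look like in genes that rose. The windows are RefSeq promoters of build GRCm38.p6, 300 bases each, from 250 bases before the start to 50 after it, written 5′ to 3′ on the gene's strand. Capitals mark matches on either strand to GAS (TTCNNNGAA) or ISRE (GAAA, any 2 bases, GAAA), and overlapping matches run together. Over all 32851 RefSeq promoter windows 8.3% held a GAS match and 3.44% an ISRE match, so such matches are not rare, and a match is no evidence of binding. Irf1 has 2 windows, and the one at chr11:53769764-53770063 on the + strand is shown. Gbp2 is at chr3:142620413-142620712 on the + strand, Cxcl10 at chr5:92348840-92349139 on the - strand and Socs1 at chr16:10785487-10785786 on the - strand. Irf1 shows a GAS match, and the other genes show ISRE matches.
Irf1: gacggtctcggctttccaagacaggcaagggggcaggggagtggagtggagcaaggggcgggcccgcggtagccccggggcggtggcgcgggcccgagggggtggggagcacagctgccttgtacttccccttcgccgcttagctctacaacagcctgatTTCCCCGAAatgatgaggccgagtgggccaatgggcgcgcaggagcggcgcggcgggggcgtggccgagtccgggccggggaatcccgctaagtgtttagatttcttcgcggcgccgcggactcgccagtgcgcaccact
Gbp2: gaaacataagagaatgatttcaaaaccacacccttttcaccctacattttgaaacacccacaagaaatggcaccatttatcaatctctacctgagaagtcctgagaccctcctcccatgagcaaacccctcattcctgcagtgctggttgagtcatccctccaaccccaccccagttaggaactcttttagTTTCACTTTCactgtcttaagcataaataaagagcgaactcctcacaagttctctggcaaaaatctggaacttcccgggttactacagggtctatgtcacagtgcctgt
Cxcl10: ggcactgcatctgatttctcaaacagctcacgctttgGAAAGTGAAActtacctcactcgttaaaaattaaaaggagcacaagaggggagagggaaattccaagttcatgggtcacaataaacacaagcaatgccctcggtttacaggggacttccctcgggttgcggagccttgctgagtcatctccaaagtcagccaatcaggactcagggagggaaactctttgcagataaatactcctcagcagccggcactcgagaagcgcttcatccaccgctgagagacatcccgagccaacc
Socs1: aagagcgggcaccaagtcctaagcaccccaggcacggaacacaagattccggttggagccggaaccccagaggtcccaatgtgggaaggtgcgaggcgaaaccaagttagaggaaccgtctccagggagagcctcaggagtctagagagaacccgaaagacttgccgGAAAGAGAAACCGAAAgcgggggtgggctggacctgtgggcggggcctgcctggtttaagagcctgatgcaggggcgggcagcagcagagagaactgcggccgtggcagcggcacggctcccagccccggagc
The windows of Tap1 and Psmb9 held no match to either string, but they overlap on opposite strands and are largely the same sequence. The other window of Irf1 held no match either. Only 66.1% of the symbols at least 2-fold higher had a promoter in the table, so shares over the genes that rose are not given.

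By the median of a list, the GTPase families of cell-autonomous defence rose most. Single genes of other lists also rose far, such as the chemokine Cxcl9 with a log2 fold change of 12.5. Guanylate-binding proteins, GTPases that attack the membranes of intracellular microbes, rose in 11 of 11 members tested with a median log2 fold change of 6.93. Gbp2, whose promoter is printed above, read 25.7, 26.6 and 25.2 CPM in M0 CM and 1079, 1156 and 1109 CPM in M1 CM. Gbp4 was among the 5 genes with the highest CPM, uncorrected for length, of those that rose at least 2-fold, at 47.7, 51.1 and 48.4 CPM in M0 CM and 2183, 2114 and 2116 CPM in M1 CM. Gbp3 read 17.98, 19.2 and 15.7 CPM in M0 CM and 1283, 1277 and 1257 CPM in M1 CM. The M0 CM libraries were low and alike for each of these genes, and no values overlapped. Gbp5, linked to inflammasome assembly, read 0.468, 0.945 and 1.01 CPM in M0 CM and 287, 294 and 271 CPM in M1 CM. Members of the family are close copies of each other, and no source used here says how the authors counted reads shared between copies, so values of single members are less certain than that of the family.

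The immunity-related GTPases, a related family that strips vacuoles, rose too, with 10 of 11 members tested higher and a median of 7.83. Iigp1 read 0.468, 0.199 and 0.289 CPM in M0 CM and 1224, 1176 and 1217 CPM in M1 CM. Igtp (Irgm3) read 5.02, 3.13 and 4.29 CPM in M0 CM and 997, 937 and 936 CPM in M1 CM. Irgm1, a regulator of the family, read 34.3, 31.3 and 31.5 CPM in M0 CM and 685, 633 and 656 CPM in M1 CM, a rise of 20.3-fold. The exception was Irgq, a distant member, at 29.1, 31.7 and 28.96 CPM in M0 CM and 30.5, 31.4 and 30.5 CPM in M1 CM (adjusted p = 0.61).

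Antiviral effectors rose in 36 of 36 members tested, 33 of them at least 2-fold, and DESeq2's Wald test called 34 of the 36 higher. Isg15, a ubiquitin-like modifier, read 5.06, 5.02 and 4.72 CPM in M0 CM and 325, 316 and 256 CPM in M1 CM. Ifit1, which binds viral RNA ends, read 2.25, 2.69 and 2.84 CPM in M0 CM and 309, 284 and 267 CPM in M1 CM. Bst2, which tethers budding virus, read 42.9, 44.3 and 43.1 CPM in M0 CM and 564, 579 and 528 CPM in M1 CM. In none of these genes did a value in M0 CM come near the lowest in M1 CM. Ifitm3, an inhibitor of virus entry, rose 5.69-fold, and Samhd1, which depletes nucleotides, rose 3.92-fold. Ifi44l, at 0 counts in M0 CM and at most 1.44 CPM in M1 CM, was called by edgeR but not by DESeq2 (adjusted p = 0.18).

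Sensors of nucleic acids rose in 13 of 14 members tested. Zbp1, a sensor of Z-form nucleic acid that can start necroptosis, read 0.935, 0.696 and 0.819 CPM in M0 CM and 378, 373 and 363 CPM in M1 CM. The cytosolic RNA sensors Ifih1 and Ddx58 rose 11.8-fold and 3.89-fold. PARPs linked to interferon rose in all 10 members tested, led by Parp14 at 17.98, 21.4 and 23.03 CPM in M0 CM and 520.1, 508 and 479 CPM in M1 CM. The TRIM ubiquitin ligase list held 12 genes, chosen with earlier results known. Trim5 and Trim12a were under the filter, and the 10 tested rose, where 27.7% of all genes tested rose. Trim21, the cytosolic antibody receptor, read 8.33, 9.498 and 8.91 CPM in M0 CM and 79.5, 76.4 and 72.1 CPM in M1 CM. Rnf213, a giant ubiquitin ligase, was also among the 5 genes with the highest CPM of those that rose at least 2-fold, at 279.5, 269.9 and 282 CPM in M0 CM and 1869, 1777 and 1746 CPM in M1 CM. The members tested of the PARP and TRIM lists thus rose without exception, though Trim35 by only 1.55-fold and Tiparp by 1.16-fold.

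**Figure D3:**
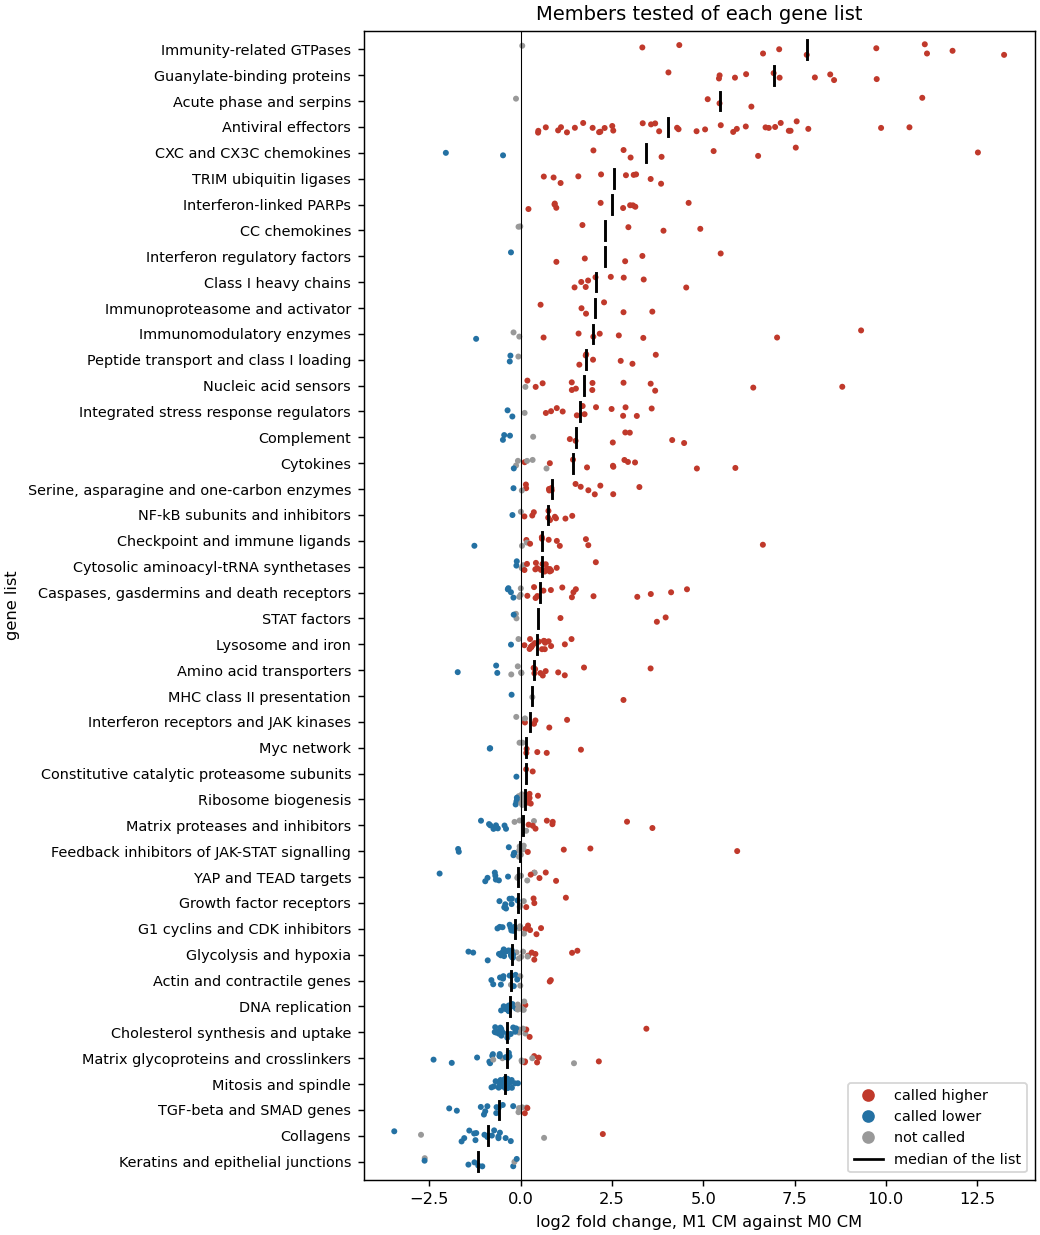
Log2 fold change in M1 CM against M0 CM for each member tested of the gene lists, with a black bar at the median of a list. Interferon lists lie at the top, with medians of 7.83 and 6.93 for the 2 GTPase families, and collagens and keratins at the bottom with -0.91 and -1.16.

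Most genes of antigen presentation by MHC class I rose. The immunoproteasome replaces the catalytic subunits of the constitutive proteasome and yields peptides suited to class I. Its subunit Psmb9 read 20.5, 22.1 and 22.9 CPM in M0 CM and 283, 259 and 254 CPM in M1 CM, Psmb10 read 39.4, 39.5 and 38.02 CPM in M0 CM and 285, 271 and 267 CPM in M1 CM, and Psmb8 read 53.3, 56.99 and 54.4 CPM in M0 CM and 266, 302 and 233 CPM in M1 CM. All 6 members of that list rose, including the activator subunits Psme1 and Psme2. The subunits they replace moved by far less. Psmb5 rose 1.26-fold and Psmb6 1.11-fold, while Psmb7 fell 1.08-fold. The call on Psmb6 was lost with library sizes alone, and that on Psmb7 without M0 CM replicate 2 or M1 CM replicate 1.

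Peptide transport followed. Tap1, a subunit of the peptide transporter, read 28.8, 34.2 and 31.5 CPM in M0 CM and 409.6, 404 and 410.4 CPM in M1 CM. Tapbpl, a peptide editor, rose 6.68-fold, Tapbp rose 3.04-fold and the trimming peptidase Erap1 rose 3.44-fold. The general chaperones of the endoplasmic reticulum did not share this: Calr fell 1.23-fold and Pdia3 1.22-fold. B2m, the light chain of every class I molecule, read 616, 620.5 and 607 CPM in M0 CM and 2431, 2485 and 2364 CPM in M1 CM. Of 9 heavy chain genes tested all were higher, with a median log2 fold change of 2.05. H2-K1, a classical heavy chain, read 233, 243 and 226 CPM in M0 CM and 803, 838 and 771 CPM in M1 CM, and H2-T23, which encodes Qa-1, read 14.3, 16.9 and 16.4 CPM in M0 CM and 171, 157 and 163 CPM in M1 CM. The smallest M1 CM value lay above the largest M0 CM value in each. Heavy chain genes are close copies, and the caution on shared reads holds for them as well.

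The class II pathway, by contrast, was hardly seen. 6 of its 9 genes were under the filter, including Ciita, its master regulator, and H2-Aa. Cd74, the invariant chain, was called higher but read only 0.8099, 1.11 and 0.819 CPM in M1 CM. In TAM CM the same gene read 22.3, 25.3 and 25.6 CPM.

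Several enzymes with effects on immune cells rose. Nos2 (chr11:78920787-78960254, + strand), the inducible nitric oxide synthase, read 6.59, 7.76 and 5.88 CPM in M0 CM and 826, 909 and 889 CPM in M1 CM, a log2 fold change of 7.02 (SE 0.07) with edgeR adjusted p = 1.05e-26. The libraries of a medium lay close together beside the distance between the media. Acod1, which makes itaconate and is best known from activated macrophages, had 0 counts in M0 CM and read 3.19, 3.799 and 4.55 CPM in M1 CM, at least 81.98-fold higher against a floor of 3 counts over the group. Its rise came with that of Mpeg1 and of the summed macrophage markers, and their part in it was not tested. Ptgs2, the inducible cyclooxygenase, read 49.02, 38.7 and 45.8 CPM in M0 CM and 254, 273 and 337 CPM in M1 CM. Ido2 and Ido1, tryptophan-degrading enzymes, rose 10.3-fold and 4.48-fold, Ido1 to at most 6.14 CPM.

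Genes of cell death leaned upward, with 15 of 22 members tested higher and 4 lower. Fas, a death receptor, read 3.83, 5.02 and 3.52 CPM in M0 CM and 48.7, 49.8 and 47.2 CPM in M1 CM. Casp4, the mouse caspase-11 that senses lipopolysaccharide, read 5.82, 7.36 and 6.602 CPM in M0 CM and 59.9, 61.9 and 58.4 CPM in M1 CM. Casp1 and Gsdmd, the inflammatory caspase and its pore-forming substrate, rose 3.98-fold and 2.203-fold, and Mlkl, the effector of necroptosis, rose 2.85-fold. Each of these genes was separated between the media. Tnfsf10 (TRAIL) read 0.383, 0.597 and 0.193 CPM in M0 CM and 9.27, 9.76 and 8.75 CPM in M1 CM. Bmf, a BH3-only gene of the intrinsic pathway, was among the largest falls, at 7.87, 9.05 and 8.96 CPM in M0 CM and 1.71, 1.68 and 1.74 CPM in M1 CM.

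Ligands seen by T and NK cells changed in both directions. Cd274 (PD-L1), an inhibitory ligand, read 0.638, 0.199 and 0.675 CPM in M0 CM and 51.7, 53.8 and 48.7 CPM in M1 CM. Tnfrsf14 rose 3.45-fold, Vcam1, an adhesion molecule, 3.61-fold, and Cd47, an inhibitor of phagocytosis, 1.49-fold. Ulbp1, a ligand of the activating receptor NKG2D, was the 1 member of that list to fall, at 103, 110.3 and 101 CPM in M0 CM and 44.3, 41.02 and 44.97 CPM in M1 CM. In that list 10 of 13 members tested were higher. All 3 M1 CM libraries were below all of M0 CM for Ulbp1.

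Most of the chemokine genes tested rose, with Cxcl12 as the main exception. The CXCR3 ligand Cxcl9 read 0.08503, 0.0497 and 0.0482 CPM in M0 CM and 418, 405 and 378 CPM in M1 CM. Cxcl10, another ligand of that T cell receptor, read 22.5, 22.5 and 24.4 CPM in M0 CM and 947, 925 and 829.6 CPM in M1 CM, and Cxcl11 read 3.06, 2.78 and 2.12 CPM in M0 CM and 255, 245 and 228 CPM in M1 CM. Cxcl1, a neutrophil attractant, rose 7.05-fold and Cxcl5 3.98-fold. Cxcl12 (chr6:117168535-117181367, + strand), the ligand of CXCR4, fell, at 391, 439 and 402 CPM in M0 CM and 100.3, 102 and 95.7 CPM in M1 CM, a log2 fold change of -2.05 (SE 0.07). Cx3cl1 fell 1.398-fold, which made 2 falls beside 8 rises among 10 members tested. Of 16 CC chemokines 10 were under the filter, Ccl3 and Ccl4 among them, and of the 6 tested 4 rose and 0 fell. Ccl5 read 7.01, 7.11 and 7.47 CPM in M0 CM and 237, 201 and 215 CPM in M1 CM. Ccl2, the monocyte attractant, read 244, 222 and 234 CPM in M0 CM and 1649, 2143 and 1621 CPM in M1 CM. Ccl2 was the more variable within M1 CM, and its lowest M1 CM value was still above all of M0 CM.

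Il1rl1 (chr1:40429570-40465415, + strand), the interleukin-33 receptor ST2, had the highest CPM, uncorrected for length, of the genes that rose at least 2-fold. It read 272, 303 and 271 CPM in M0 CM and 2580.3, 3025 and 2838 CPM in M1 CM, a rise of 9.98-fold. The membrane and soluble forms come from the same gene and were not counted apart here. Il15, which supports NK and memory T cells, read 9.18, 8.01 and 8.53 CPM in M0 CM and 68.8, 64.3 and 64.5 CPM in M1 CM, and Il18bp, the decoy for interleukin-18, rose 7.17-fold. Lif, a cytokine of the interleukin-6 family, rose 3.52-fold. Il6 rose as well, but from few counts, reading 0.0425, 0 and 0 CPM in M0 CM and 1.26, 1.49 and 1.02 CPM in M1 CM. Csf3, the granulocyte growth factor, read 0.128, 0.398 and 0.289 CPM in M0 CM and 7.15, 7.93 and 7.93 CPM in M1 CM. Of 26 cytokine genes 9 were under the filter, among them Il1a, Il1b and Csf2, and 11 of the 17 tested rose, or 7 of the 10 that pass a filter of 5 CPM.

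Most NF-kB inhibitors and subunits rose. Tnfaip3 (A20) read 23.2, 27 and 20.9 CPM in M0 CM and 62.4, 63.6 and 62.8 CPM in M1 CM, Nfkbib rose 2.34-fold and Nfkbia 1.74-fold. Relb, of the alternative pathway, read 32.1, 35.95 and 32.5 CPM in M0 CM and 65.4, 65.8 and 65.1 CPM in M1 CM, and Rela rose 1.25-fold. Nfkb1 was at 167, 169 and 166 CPM in M0 CM and 168, 169 and 168 CPM in M1 CM (adjusted p = 0.9), but read 566, 569 and 569.5 CPM in M2 CM. Of 12 members tested 10 were higher.

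Of 20 complement genes 9 were under the filter, C1qa to C1qc among them, and 7 of 11 tested rose. C1s1, a protease of the classical pathway, read 11.7, 10.8 and 10.7 CPM in M0 CM and 248, 271 and 222 CPM in M1 CM, and C3, the central component, read 124, 138 and 129 CPM in M0 CM and 786, 761 and 696 CPM in M1 CM. Of 15 acute phase and serpin genes 10 were under the filter, among them Saa1, Saa2 and Hp, and of the 5 tested 4 rose and 0 fell. Lbp, also under the filter, had 37, 7 and 25 counts in M0 CM and 5, 0 and 8 counts in M1 CM. Lcn2, which captures bacterial siderophores, read 0.638, 0.945 and 0.5301 CPM in M0 CM and 24.1, 25.97 and 23.5 CPM in M1 CM. Saa3 read 0.383, 0.696 and 0.241 CPM in M0 CM and 18.7, 22.6 and 16.3 CPM in M1 CM. Serpina3f had 0 counts in M0 CM and read 12.4, 11.9 and 12.5 CPM in M1 CM, at least 263-fold higher against the floor of 3 counts over the group.

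A second group of rises belonged to the integrated stress response, in which phosphorylation of eIF2-alpha favours translation of ATF4, a factor that turns on amino acid synthesis and uptake. Atf4 transcripts read 408, 418 and 389.5 CPM in M0 CM and 859.8, 976 and 860.3 CPM in M1 CM. Genes known as its targets rose as well. Chac1, which degrades glutathione, read 6.59, 6.76 and 6.26 CPM in M0 CM and 68.8, 90.5 and 76.8 CPM in M1 CM. Trib3, an inhibitory pseudokinase, read 18.7, 14.9 and 15.6 CPM in M0 CM and 111, 133 and 119 CPM in M1 CM, and Ddit3 (CHOP) read 6.76, 8.35 and 7.42 CPM in M0 CM and 27.3, 37.6 and 29.01 CPM in M1 CM. In each the lowest M1 CM library was above the highest of M0 CM. Of 16 regulators tested 13 were higher, with a median log2 fold change of 1.62.

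Among amino acid genes, Asns, asparagine synthetase, read 85.6, 86.3 and 85.3 CPM in M0 CM and 251, 284 and 269 CPM in M1 CM. Cth, of the transsulfuration pathway to cysteine, read 7.44, 7.01 and 6.41 CPM in M0 CM and 58.5, 74.7 and 66.3 CPM in M1 CM, and Aldh1l2, of mitochondrial folate metabolism, rose 5.79-fold. In serine synthesis Phgdh rose 1.803-fold, Psat1 1.71-fold and Psph 3.61-fold. Of the 15 enzymes tested 13 were higher and 1 lower. Slc7a11, the cystine importer, read 24.4, 19.6 and 26.6 CPM in M0 CM and 246, 290.5 and 296 CPM in M1 CM, and its partner Slc3a2 rose 2.31-fold. Transporters as a whole were mixed, with 10 of 17 higher and 3 lower, and Slc6a6, the taurine transporter, fell 1.56-fold. Cytosolic aminoacyl-tRNA synthetases were higher in 16 of 20 members. Wars, which is also known as an interferon-gamma target, led them with a rise of 4.16-fold, against 1.98-fold for Sars and 1.78-fold for Nars. Hmox1, haem oxygenase, read 114, 102 and 107 CPM in M0 CM and 254, 304 and 290.3 CPM in M1 CM.

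Among the genes that fell were many of the matrix lists. Collagens fell in 17 of 20 members tested, with a median log2 fold change of -0.91. Col12a1 (chr9:79598991-79718831, - strand), a fibril-associated collagen, had the largest fall of those named by rank, at 79.5, 92.7 and 77.9 CPM in M0 CM and 7.65, 7.41 and 7.62 CPM in M1 CM. Col6a3 read 383, 394 and 361 CPM in M0 CM and 133, 113 and 124 CPM in M1 CM, and Col1a1, of the main fibrillar collagen, read 476, 503 and 468 CPM in M0 CM and 219, 200.2 and 194 CPM in M1 CM. Libraries of the 2 media did not overlap for these genes, which for Col12a1 was part of the rule that named it. Col5a3 was the 1 collagen called higher, at 27.04, 26.8 and 26.4 CPM in M0 CM and 124, 129.9 and 128 CPM in M1 CM. Zfp469, a zinc finger gene tied to corneal collagen, read 22.4, 25.6 and 25.2 CPM in M0 CM and 3.46, 2.64 and 2.66 CPM in M1 CM. The small leucine-rich proteoglycans split, as Ogn read 209, 227 and 212 CPM in M0 CM and 46.03, 45.1 and 44.2 CPM in M1 CM and Omd fell 6.78-fold, but Dcn rose to 11.9, 13.1 and 12.5 CPM from 3.06, 3.18 and 2.22 CPM.

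Glycoproteins of the matrix fell in 14 of 26 members tested and rose in 6. Fn1 (fibronectin) read 2565, 2683 and 2481 CPM in M0 CM and 1444, 1479 and 1401 CPM in M1 CM, Sparc fell 1.81-fold and Postn, periostin, read 10.6, 10.1 and 9.16 CPM in M0 CM and 1.89, 2.45 and 1.33 CPM in M1 CM. Fibronectin was thus lower in every M1 CM library. Proteases and their inhibitors had no common direction, with 8 higher and 8 lower of 20, and the sign of their median turned with library sizes alone or a filter of 5 CPM. Mmp13 rose to 5.76, 5.34 and 5.88 CPM and Mmp14, a membrane collagenase, rose 1.32-fold. Timp2, an inhibitor, fell 1.67-fold and Timp3 1.598-fold. The falls came with a lower summed level of 8 fibroblast markers, 1253 to 1343 CPM in M1 CM against 2187 to 2315 CPM in M0 CM, and that difference lay mainly in Col1a1 and Col1a2, which are themselves among the falls. Of the 5 fibroblast markers tested 2 rose, Pdgfra from a mean of 236 to 263 CPM and Dcn from 2.82 to 12.5 CPM, and 3 fell, with Pdgfrb going from 40.7 to 29.7 CPM.

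Genes of TGF-beta and BMP signalling fell in 11 of 17 members tested. Id1, Id2 and Id3 are targets of BMP-SMAD signalling that inhibit basic helix-loop-helix factors. Id2 read 114, 112 and 113 CPM in M0 CM and 38.3, 32.1 and 30.5 CPM in M1 CM, and Id3 read 583, 582 and 582 CPM in M0 CM and 299, 252 and 269 CPM in M1 CM. Id1 fell 1.88-fold, and Tgfbi, named for its induction by TGF-beta, read 76.1, 71.5 and 75.2 CPM in M0 CM and 20.8, 17.8 and 18.7 CPM in M1 CM. The media did not overlap for any of these genes. Tgfb3 fell 2.01-fold. Among 18 targets of the YAP and TEAD factors tested 8 fell and 5 rose, beside 25.6% and 27.7% of all genes tested. Ccn2 and Ccn1, often used as readouts, fell 4.66-fold and 1.88-fold, whereas Axl rose 1.295-fold. Ankrd1 was called lower only without M1 CM replicate 2, and the median log2 fold change of the list was -0.08. Ccn2 was low throughout, at 3.996, 4.67 and 3.71 CPM in M0 CM and 0.8998, 0.577 and 1.18 CPM in M1 CM.

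Actin and contractile genes fell in 11 of 16 members. Vcl, vinculin, read 298, 296 and 282 CPM in M0 CM and 174, 176 and 170.2 CPM in M1 CM, and Tpm2 fell 1.74-fold. Zyx (zyxin) and Tagln2 were the members that rose, 1.77-fold and 1.74-fold. Cav1, the coat protein of caveolae, had the highest CPM, uncorrected for length, of the genes that fell at least 2-fold, at 628, 668 and 624 CPM in M0 CM and 237, 220.4 and 232 CPM in M1 CM. Keratin and junction genes, of which 15 of 24 were under the filter, fell in 7 of 9 tested. Krt8 read 267, 275 and 258 CPM in M0 CM and 130.4, 128 and 128 CPM in M1 CM and Cldn1, a tight junction claudin, read 5.31, 5.92 and 5.49 CPM in M0 CM and 0.8998, 1.202 and 0.563 CPM in M1 CM.

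Mitotic genes moved together by a modest amount. All 28 members tested were lower, with a median log2 fold change of -0.42, where 25.6% of all genes were lower. Mki67, the proliferation marker Ki-67, read 861, 888 and 882 CPM in M0 CM and 516, 490.1 and 506 CPM in M1 CM. Plk1, a mitotic kinase, read 139.9, 142 and 136 CPM in M0 CM and 93.5, 83 and 82.7 CPM in M1 CM, and Cdc20, an activator of the anaphase-promoting complex, read 245, 264 and 262 CPM in M0 CM and 161, 143 and 158 CPM in M1 CM. The M1 CM libraries all lay below the M0 CM libraries. The smallest fall was that of Top2a (1.05-fold), whose call was lost without M0 CM replicate 2 or 3 and without M1 CM replicate 1 or 3. Replication genes were lower in 17 of 26 members, with Mcm5, of the replicative helicase, down 1.33-fold and Tyms, thymidylate synthase, 1.38-fold. The G1 regulators were mixed. Ccnd2 and Cdkn1a (p21) rose 1.47-fold and 1.35-fold, and Cdkn1b (p27) fell 1.55-fold.

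Myc rose 1.64-fold, at 109.6, 118 and 106 CPM in M0 CM and 174, 183 and 189 CPM in M1 CM. Of 24 ribosome biogenesis genes 13 were higher, but only 7 with library sizes alone, and the largest rise was that of Rrp9 at 1.39-fold. Ncl, nucleolin, was at 1342, 1379 and 1376 CPM in M0 CM and 1344, 1438 and 1407 CPM in M1 CM (adjusted p = 0.36).

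In metabolism, genes of cholesterol synthesis and uptake were lower in 18 of 25 members tested and higher in 3. The falls reached a log2 fold change of -0.71 at most, while 1 member rose by 3.44. Hmgcs1, an early enzyme of the pathway, read 236, 232 and 227 CPM in M0 CM and 143, 141 and 149 CPM in M1 CM. Idi1 fell 1.64-fold and Insig1, the feedback sensor, 1.62-fold. Glycolysis and hypoxia genes fell in 16 of 27 members. Ldha, lactate dehydrogenase, read 2035, 2067 and 1955 CPM in M0 CM and 1383, 1338 and 1436 CPM in M1 CM, and Car9, the carbonic anhydrase of hypoxic cells, read 40.6, 45.2 and 36.4 CPM in M0 CM and 13.2, 13.9 and 18.4 CPM in M1 CM. Hk2 and Ndrg1 rose against them, 2.93-fold and 2.65-fold. Lysosome and iron genes rose in 18 of 20 members, among them Ctsl, cathepsin L, at 721, 715 and 726 CPM in M0 CM and 1228, 1310.1 and 1314 CPM in M1 CM, and Npc2, a carrier of lysosomal cholesterol, up 2.31-fold. Growth factor receptors fell in 8 of 15 members and rose in 4, where 25.6% of all genes tested fell and 27.7% rose. Igf1r was down 1.496-fold and Met 1.34-fold.

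The other 2 macrophage media showed how M1 CM differed from medium of macrophages treated in other ways. These comparisons reuse the M1 CM libraries, so they are not independent of the comparison with M0 CM, and replicate 3 of M2 CM is labelled as a melanoma under cell type. Against M2 CM 4121 genes were higher in M1 CM (28.4%) and 4036 lower (27.8%), or 3839 and 3762 without that library. Against TAM CM 4997 were higher (34.4%) and 4755 lower (32.8%). Of the 11 guanylate-binding proteins 11 were higher in M1 CM than in M2 CM and 11 higher than in TAM CM. The antiviral list gave 36 and 36 of 36. Stat2 was at 21.9 ± 0.724 CPM (SD, n = 3) in M2 CM and 18.1 ± 1.38 CPM in TAM CM, and Nos2 at 5.67 ± 0.181 and 12.1 ± 1.79 CPM. Most tested members of these 2 lists were thus higher in M1 CM than in each of the other 3 media.

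The stress response, mitotic and cholesterol lists were on one side of M0 CM and M2 CM and on the other side of TAM CM for most members tested, with each comparison counted on its own. Of the 16 stress response regulators 14 were higher than in M2 CM, and 13 were lower than in TAM CM. Chac1 was at 78.7 ± 10.96 CPM (SD, n = 3) in M1 CM, 16.3 ± 0.675 CPM in M2 CM and 509 ± 13.5 CPM in TAM CM. For Slc7a11 the log2 difference of M1 CM was 2.87 from M2 CM (edgeR adjusted p = 2.74e-08) and -1.39 from TAM CM (adjusted p = 1.12e-06). Mitotic genes were lower than in M2 CM in 27 of 28 members and higher than in TAM CM in 26, and Mki67 was at 773 ± 10.3 CPM (SD, n = 3) in M2 CM and 251 ± 5.904 CPM in TAM CM. Cholesterol genes were lower than in M2 CM in 17 and higher than in TAM CM in 24 of 25 members. The growth lists were not all of this kind. Replication genes were higher than in TAM CM in 12 and lower in 13 of 26 members, and ribosome biogenesis genes were lower than in M2 CM in 22 and lower than in TAM CM in 23 of 24. Other lists that fell against M0 CM varied. Of 20 collagens, 12 were below M2 CM and 5 above, while 14 were above TAM CM and 2 below. Their median log2 difference was -0.24 from M2 CM and 0.28 from TAM CM. Of 26 matrix glycoproteins, 16 were below M2 CM and 9 above, while 12 were above TAM CM and 10 below. In the same order, the counts were 9, 5, 7 and 7 for 17 TGF-beta genes. They were 4, 1, 5 and 1 for 9 keratin and junction genes.

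Single genes showed further patterns. Il1rl1 was higher in M1 CM than in TAM CM, at 1565 ± 24.6 CPM (SD, n = 3, edgeR adjusted p = 2.98e-07), and than in M2 CM, at 697 ± 26.98 CPM (edgeR adjusted p = 2.96e-10). Cxcl12 was low in M1 CM and TAM CM and at 562 ± 34.9 CPM (SD, n = 3) in M2 CM, a level not tested against that in M0 CM. Socs1 was at 63.3 ± 6.38 CPM (SD, n = 3) in M2 CM, where its difference from M1 CM had edgeR adjusted p = 0.12. Ccl7, a monocyte attractant, was at 458 ± 5.79 CPM (SD, n = 3) in M2 CM beside 482 ± 15.2 CPM in M1 CM, with edgeR adjusted p = 0.058. Neither difference passed the threshold. Krt8, which fell in M1 CM, was at 453 ± 20.5 CPM (SD, n = 3) in M2 CM.

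**Figure D4:**
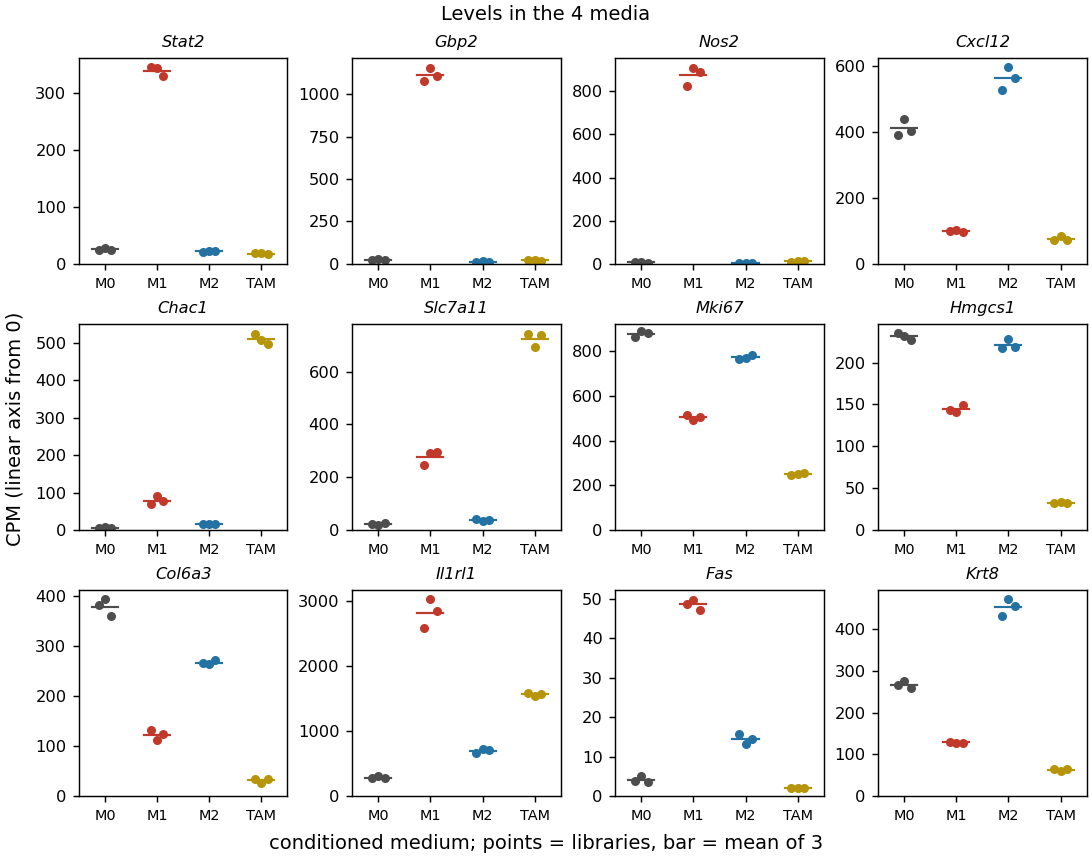
CPM of 12 genes in M0, M1, M2 and TAM CM on linear axes from 0, with a point for each library and a bar at the mean of 3. Stat2, Gbp2 and Nos2 stand out in M1 CM, while Chac1, Slc7a11, Mki67 and Hmgcs1 in M1 CM lie between M0 CM and TAM CM.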

How the data were processed

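Per the labels' protocols, SCC7 RNA was extracted by Trizol and sequenced as Illumina mRNA libraries. The authors deposited raw read counts per Ensembl gene, with no scaling. The submitters' processing notes name HISAT2 2.0 and mm10. The counting tool, the strand setting and the annotation release are unstated there and in the labels, so reads of antisense or overlapping genes may be mixed. Libraries were grouped by title. Symbols (55141 of 55487 genes) and coordinates came from GENCODE release M21 (GRCm38), which may not be the authors' release.

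The analysis used edgeR 4.0.16 in R 4.3.3: filterByExpr (the genes removed held 0.0815% of the counts), TMM, glmQLFit (robust) over all 12 libraries in 4 groups with 8 residual degrees of freedom, glmQLFTest and Benjamini-Hochberg adjustment, with a threshold of 0.05. Standard errors (SE) were taken as log2 fold change divided by the root of F. Folds from levels well under 1 CPM depend on edgeR's prior count, and where M0 CM had 0 counts the fold is a lower bound that sets its 3 libraries together at 3 counts. The genes named are a part of 360 chosen by rule: the 15 largest rises and 15 largest falls (at least 5 CPM in the higher group, no overlap, no predicted genes), members of 45 gene lists (all of lists of up to 12, otherwise the 5 largest called differences and the 3 most abundant), a panel, and the 5 most abundant genes at least 2-fold higher and lower. Mpeg1 and the genes under the filter were named after their values were seen. The members, lists and panel were chosen with earlier results of these data known.

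The test was tried on simulated counts first. Alternatives tried were the Wald test of DESeq2 1.42.0, its size factors in edgeR, no scaling factors, other filters, the 2 groups alone, the replicate number as a block, glmTreat against 1.5-fold, and each library left out. Promoter motif shares over gene sets were not computed because under 80% of the genes had a window. Figures were drawn with matplotlib 3.10.9. Some genes are not reported here.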

Additional observations from a re-analysis of the deposited data

How the results depend on the processing

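No called result reversed, but the median log2 fold change of the matrix protease list, 0.06 and not tested, was -0.0067 with library sizes alone and -0.10 with a filter of 5 CPM. The counts of genes called between M1 CM and M0 CM kept within 1.5 times of 4023 higher and 3719 lower under every alternative run, from 3219 to 4061 higher and from 3415 to 4626 lower when no library was left out. Leaving out a library of M0 CM or M1 CM gave 3699 to 3863 higher and 3418 to 3551 lower. Replicate 3 of M2 CM, labelled as a melanoma, enters the shared estimate of spread, and without it the counts were 4055 and 3712. DESeq2's Wald test called 3638 and 3609. With a filter of 5 CPM in 3 libraries, which tests fewer genes, 523 genes were at least 2-fold higher and 158 at least 2-fold lower, against 851 and 389. With library sizes alone 41.0% of the calls were higher, against 52.0% with TMM, and the median of all genes moved by -0.07 on the log2 scale. Deviations of same-numbered M0 CM and M1 CM libraries correlated across genes at 0.02, -0.0088 and -0.0024. These values show no shared effect of the replicate number, but cannot tell whether the cultures were paired. With the replicate number as a block 4061 genes were higher and 3745 lower than in M0 CM. Of 360 genes available to be named 334 had a value under every alternative, and 308 of these kept their call and direction under all of them. Of the 26 genes without a value under at least 1 alternative 23 kept theirs where they had one, and 29 of the 360 changed their call at least once. Genes under about 1 CPM rest on few counts.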

Other observations

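Several further differences, large and small, fell outside the gene lists. Clic5, an intracellular chloride channel gene, had 0 counts in M0 CM and read 5.04, 7.02 and 4.09 CPM in M1 CM, at least 116-fold higher against a floor of 3 counts over the group. Ly6e, a membrane-anchored Ly6 protein with roles in virus entry, read 743, 754 and 746 CPM in M0 CM and 1845, 1783 and 1715 CPM in M1 CM. All M1 CM libraries lay above all M0 CM libraries in both. For a gene named as a largest rise, the naming rule required this.

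Further falls included secreted and adhesion genes. Cdh26, a cadherin, read 85.4, 92.04 and 86.8 CPM in M0 CM and 18.3, 15.5 and 17.9 CPM in M1 CM. Apln, the ligand of the apelin receptor, read 33.9, 39.9 and 28.5 CPM in M0 CM and 6.84, 6.3 and 9.57 CPM in M1 CM, and C1qtnf1, a secreted C1q-related protein, read 24.6, 26.5 and 25.7 CPM in M0 CM and 5.399, 5.91 and 5.68 CPM in M1 CM. A lack of overlap was part of the rule for naming the largest falls, so it adds nothing for genes named that way. Dchs2, a large protocadherin, read 22.6, 20.9 and 19.7 CPM in M0 CM and 4.27, 3.65 and 3.94 CPM in M1 CM, and Cd248 (endosialin) read 4.25, 5.67 and 5.16 CPM in M0 CM and 1.08, 1.06 and 0.4605 CPM in M1 CM. Dkk3, of the Dickkopf family, fell 4.44-fold, and Olfml3, a secreted olfactomedin-like protein, fell 4.46-fold. H1f0, the linker histone of slowly dividing cells, read 574, 590.4 and 561 CPM in M0 CM and 262, 261 and 251 CPM in M1 CM. Ces1g, a carboxylesterase, fell from 4.76, 4.82 and 5.64 CPM to 1.35, 0.433 and 0.512 CPM, and it was at 101 ± 7.06 CPM (SD, n = 3) in M2 CM.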
